A study of Bos taurus with 25 samples.

Results

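The genes of de novo fatty acid synthesis were followed in liver and mammary gland biopsies of lactating Holstein cows. The list holds 10 genes, FASN, ACACA, SCD, ACSS2, ACLY, THRSP, SREBF1, AACS, ELOVL6 and FADS2, and its members are all probes of the array whose RefSeq accession is paired with one of these symbols. By that rule 9 of the 10 genes were found, on 30 of the 43653 different probes that are not controls. No accession on the array was paired with FASN, the synthase that builds palmitate, so its level is not analysed here. Each of the other 9 genes is described by the brightest of its probes over all arrays, beside the range of its other probes.

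The biopsies were taken 64 ± 3 days after calving from multiparous cows kept and fed alike. All cows received a weekly intramuscular injection of 5 mL, which began before calving. The injection held saline (Ctl), 320 mg of pteroylmonoglutamic acid (B9), 10 mg of cyanocobalamin (B12), or both vitamins at these amounts (B9 + B12). RNA of each biopsy was labelled with Cy3 and hybridized alone to an Agilent 4x44K bovine array, giving 12 liver and 13 mammary arrays of 13 cows. Liver arrays were of 3 Ctl, 3 B9, 4 B12 and 2 B9 + B12 cows, and mammary arrays of 3 Ctl, 3 B9, 4 B12 and 3 B9 + B12 cows. Both tissues came from the same animal in 12 cows.

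De novo synthesis turns activated acetate into long saturated fatty acids. Acetyl-CoA is made from acetate or citrate, carboxylated to malonyl-CoA and condensed by the synthase, and the product is then lengthened and desaturated. In ruminants acetate from the rumen is the main carbon source, adipose tissue and the lactating mammary gland are the main sites, and the liver synthesizes little.

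Both tissues carried their defining transcripts. All 9 measured hepatocyte genes were lower in the mammary gland, and 8 of the 10 measured mammary epithelial genes, the caseins and other milk genes among them, were higher there. The exceptions were the keratins KRT8 and KRT18, which were lower in the mammary gland. Probes well above background made up 71.2 to 84.2% of each liver array (median 78.6%) and 64.5 to 76.5% of each mammary array (median 72%). The liver arrays of cow 57 (B9) and cow 32 (B9 + B12) stood apart from the others. Their median correlation with the remaining liver arrays was 0.972 and 0.973, against 0.989 to 0.992 for the other 10. The array of cow 32 was also one of 3 liver arrays scanned on a second day. The other arrays of that day were of cow 43 (Ctl) and cow 37 (B12). The fits had no term for the day, and values without it or within it are given beside the liver results. In bulk tissue, a smaller share of the cells that carry a transcript and less of it per cell cannot be told apart.

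Between the tissues the members split, with ACSS2, AACS, ACACA and SCD higher in the mammary gland, and ELOVL6, FADS2 and THRSP higher in the liver. A member was called where the limma fit over all 25 arrays, normalized together, gave a difference of 2-fold or more with an adjusted p not above 0.05. By this rule 4 of the 9 members were higher in the mammary gland, against 11.1% of the 27841 genes tested. These were SCD, AACS, ACSS2 and ACACA. Another 3 members, FADS2, ELOVL6 and THRSP, were lower there, against 8.26% of all genes. All mammary arrays lay above all liver arrays for 4 members, against 15.7% of all genes, and below them for 2 members, against 10.9%. SREBF1 and ACLY differed by less than 2-fold. The levels given in this comparison are log2 signals normalized over both tissues, and levels of different probes cannot be compared with each other.

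Among the enzymes that supply acetyl units, ACSS2, which activates acetate in the cytosol, lay between 8.01 and 11.84 in the liver (log2, median 10.44, n = 12) and between 13.23 and 14.94 on mammary arrays (median 14.12, n = 13). No mammary array overlapped a liver array. The log2 difference was 3.82 (standard error 0.35, 14.1-fold, limma adjusted p = 6.24e-09), and its second probe gave 2.31. AACS, which activates the ketone body acetoacetate for lipid synthesis, lay between 6.91 and 8.27 in the liver (log2, median 7.12), and its mammary arrays between 12.06 and 12.86 (median 12.24). The groups were again apart, by a log2 difference of 5.03 (standard error 0.13, 32.7-fold, limma adjusted p = 7.96e-18), and the second AACS probe gave 2.64. ACLY, which cleaves citrate to acetyl-CoA, overlapped between the tissues. Its log2 levels ran from 9.58 to 11.46 in the liver, with mammary arrays at 9.58 to 10.32. The log2 difference was −0.43 (standard error 0.18, limma adjusted p = 0.0411), and its 4 probes disagreed in sign, from −0.43 to 0.45. The call on ACLY depended on the scaling, and with quantiles set within each tissue it was lower in the mammary gland, at −1.84 (limma adjusted p = 1.81e-08). A limma fit of the deposited processed table gave −1.90 (adjusted p = 5.29e-09).

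ACACA, the acetyl-CoA carboxylase that makes malonyl-CoA, ran from 6.55 to 8.25 in the liver (log2, median 7.04, n = 12) while its mammary arrays spanned 9.20 to 10.22 (median 9.92, n = 13). The arrays did not overlap, and the log2 difference of 2.65 (standard error 0.19, 6.27-fold, limma adjusted p = 1.22e-10) was shared by all 3 probes, which ranged from 2.54 to 2.80.

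The desaturases moved in opposite directions. SCD, which places the double bond that turns stearate into oleate, lay between 9.15 and 14.76 in the liver (log2, median 13.03, n = 12) and between 17.71 and 18.06 on mammary arrays (median 17.90, n = 13). Every mammary array was above every liver array, by a mean log2 difference of 5.23 (standard error 0.47, 37.5-fold, limma adjusted p = 4.53e-09), and the 7 SCD probes ranged from 4.94 to 5.75. FADS2, which opens the path from dietary linoleic and linolenic acid to highly unsaturated fatty acids, showed the reverse. Its single probe lay between 10.45 and 16.55 in the liver (log2, median 15.70) and between 7.84 and 8.95 in the mammary gland (median 8.32). The log2 difference was −6.70 (standard error 0.48, 104-fold lower in the mammary gland, limma adjusted p = 1.34e-10), with no overlap.

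ELOVL6, the elongase that lengthens palmitate to stearate, was also higher in the liver. It ran from 8.68 to 11.02 there (log2, median 10.17, n = 12) with the mammary arrays at 6.87 to 7.85 (median 7.10, n = 13). The groups did not overlap, the log2 difference was −2.76 (standard error 0.21, limma adjusted p = 3.78e-10), and all 5 probes were called lower in the mammary gland, from −2.76 to −1.20.

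Of the regulators, THRSP, a small thyroid hormone responsive protein that promotes lipid synthesis, was lower in the mammary gland. It ran from 7.62 to 10.79 in the liver (log2, median 9.58) against 6.27 to 7.90 on mammary arrays (median 6.75), so that the lowest liver array lay within the mammary range. The log2 difference was −2.60 (standard error 0.33, limma adjusted p = 8.14e-07), all 4 probes were called lower, and the mammary level was below that of the liver in 12 of 12 cows. SREBF1, the transcription factor that drives many lipogenic genes, differed little. Its arrays overlapped, at 9.42 to 10.71 in the liver (log2, median 10.25) and 9.83 to 11.58 in the mammary gland (median 10.93). The log2 difference was 0.78 (standard error 0.20, limma adjusted p = 0.00187) and the mammary level was the higher in 12 of 12 cows, but the direction depended on the scaling. With quantiles set within each tissue it was −0.67, and in the authors' processed table −0.69. The median over all probes was 0.0254 when all arrays were normalized together, −0.379 with quantiles within each tissue and −0.555 in the authors' table, so that under each of the latter SREBF1 lay further below 0 than the median probe.

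The 7 called members kept their sign and call under each of 18 alternatives, but not their size. The difference ran from 2.15 to 3.96 for ACSS2, from 1.66 to 3.71 for ACACA, from 3.97 to 5.51 for SCD and from 3.80 to 5.81 for AACS, each lowest with quantiles set within each tissue. It ran from −8.26 to −6.66 for FADS2, from −4.28 to −2.06 for ELOVL6 and from −4.14 to −2.29 for THRSP (log2), each farthest from 0 in the authors' processed table.

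**Figure D1:**
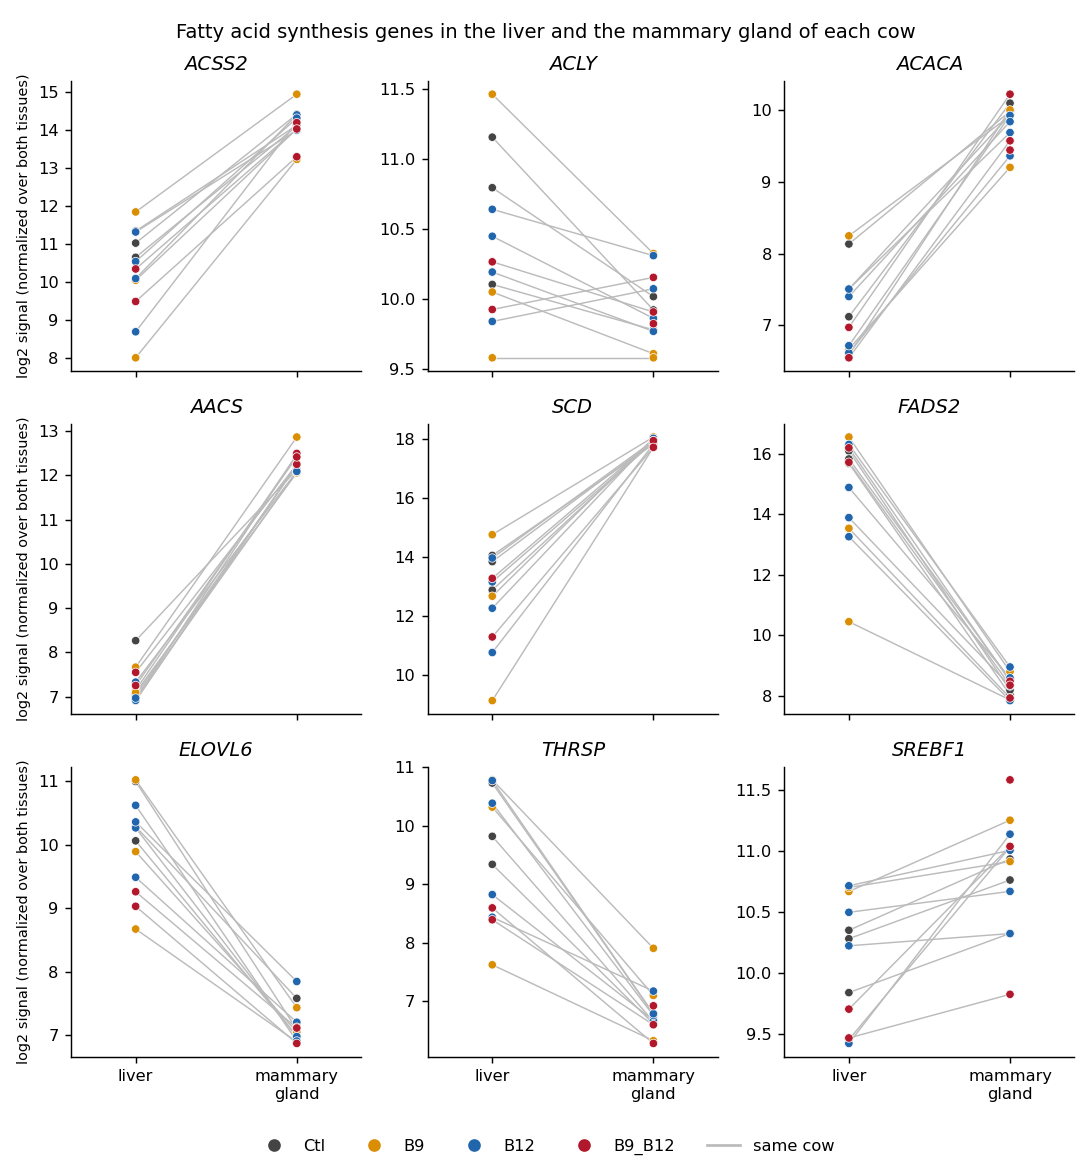
Log2 signal, normalized over both tissues, of the 9 measured members in each biopsy (left, liver, n = 12; right, mammary gland, n = 13); colours give the treatment, lines join the tissues of a cow, and each panel has its own axis. Mammary arrays lie above all liver arrays for ACSS2, ACACA, AACS and SCD and below them for FADS2 and ELOVL6, and the liver points are spread more widely.

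Within the same 12 cows, the differences of the 8 members other than ACLY each had the same sign in every cow, as did 37.5% of all genes. For the 6 members whose arrays did not overlap this follows from the lack of overlap, and for SREBF1 the sign is that of the joint normalization only. For ACLY the mammary level was the higher in 2 of 12 cows. On the 4 slides that carried both tissues, the difference ranged from 3.104 to 7.12 for SCD, from 4.48 to 5.40 for AACS, from −8.46 to −4.72 for FADS2 and from −1.78 to 0.21 for ACLY (log2).

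The wider lipid pathway showed where the members sit among fatty acid uptake and esterification. Of 44 related genes listed, 32 were found on the array, and 15 of these were higher and 7 lower in the mammary gland, where 11.1% and 8.26% of all genes were. Among the 6 genes of uptake and activation, 5 were higher, led by FABP3, a cytosolic fatty acid carrier, at a log2 difference of 10.65, LPL, the lipase that releases fatty acids from lipoproteins, at 8.32, and CD36, a fatty acid receptor, at 6.63. ACSL5, an acyl-CoA synthetase, was lower, at −4.96. ACSS1, the mitochondrial acetate-activating enzyme, was higher by 5.73 (log2). BDH1, which converts the ketone body hydroxybutyrate, was not well above background on any liver array. Its log2 difference was 5.59 (limma adjusted p = 8.76e-20), and over plain array means it was at least 48.2-fold higher in the mammary gland. The other large differences toward the liver were those of NR1H3, the oxysterol receptor that acts upstream of SREBF1, at −4.06, of DGAT2, which completes triacylglycerol, at −4.01, of the polyunsaturated elongase ELOVL5 at −3.64, and of ACSS3, a mitochondrial acyl-CoA synthetase of short chains that favours propionate, at −2.75 (log2). Of the 4 measured esterification genes 2 were higher and 1 lower in the mammary gland. The higher ones, GPAM at 5.05 and GPAT4 at 3.29, which both start glycerolipid synthesis, were named after their values were seen. Of the 6 measured genes of elongation and desaturation other than the members, 2 were higher and 1 lower. The elongase ELOVL1, also named after its value was seen, was higher by 1.77 (log2), opposite to ELOVL5 and ELOVL6. None of the 4 measured genes that process SREBP proteins (INSIG1, SCAP, MBTPS1, MBTPS2) was called.

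**Figure D2:**
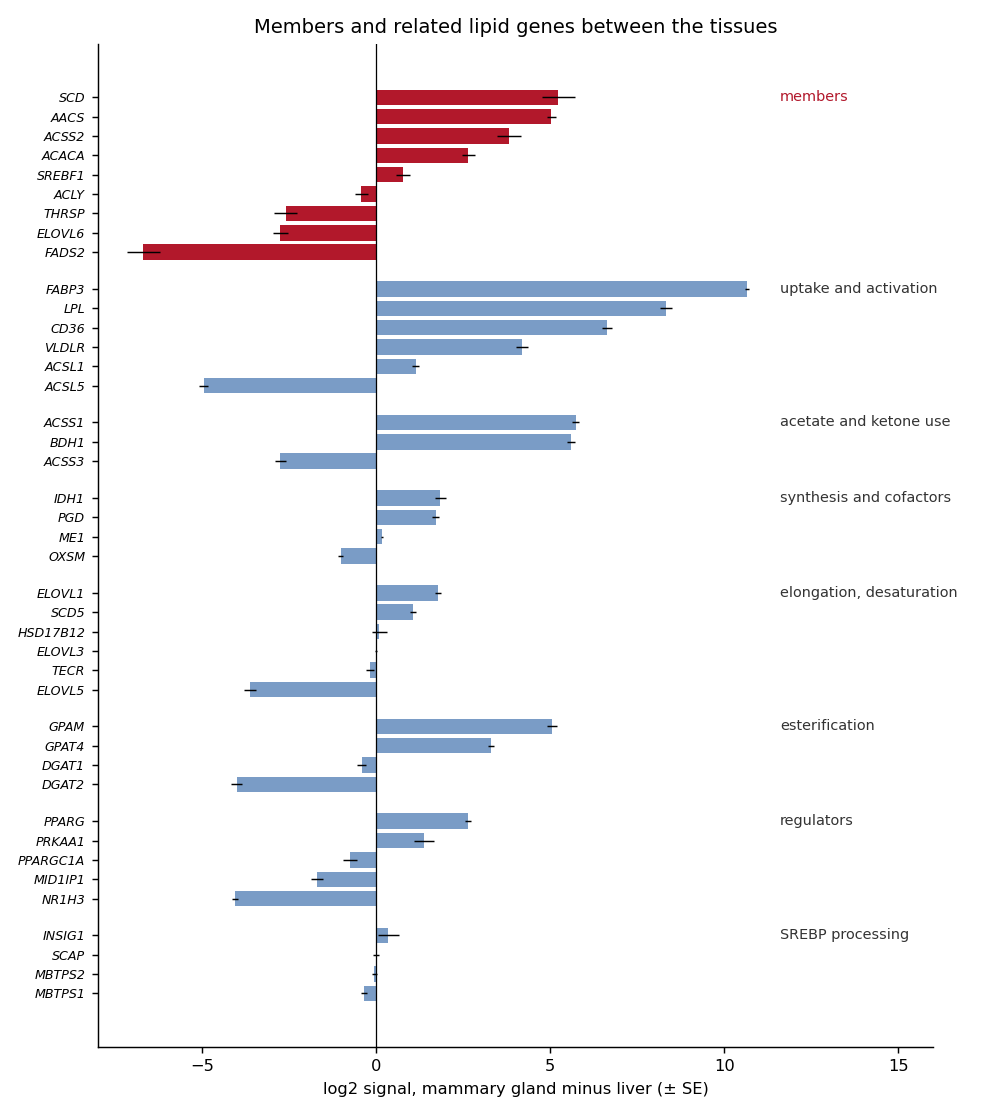
Log2 difference of the mammary gland from the liver (bars) with its standard error (lines) for the 9 members (red) and 32 related genes (blue), grouped by step. ELOVL5 and FADS2, both of polyunsaturated fatty acid synthesis, lie at −3.64 and −6.70, and FABP3 and LPL at 10.65 and 8.32; ELOVL3 was not well above background in either tissue.

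Only some markers of other cell types differed between the tissues. Of the 7 measured adipocyte genes FABP4 was higher in the mammary gland by 9.07 (log2), CFD and CIDEC were lower, and LEP, LIPE, PLIN1 and RETN were not called, with means of 6.14 to 6.37 in the liver and 6.18 to 6.78 over the mammary arrays. The summed level of all 7 ran from 13.36 to 14.21 over the livers and from 15.54 to 16.45 over the mammary arrays (log2), but it was carried by CFD in the liver (mean 13.66) and by FABP4 in the mammary gland (mean 15.97). Of 5 stromal genes 4 were higher in the mammary gland, with log2 sums of 12.44 to 13 over the livers and 14.27 to 15.44 over the mammary arrays. Of 4 immune genes CD14 and CD68 were lower in the mammary gland. The part of these cells in the differences of the members was not tested.

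The liver differed from the mammary gland in a further respect, the variation of the members from cow to cow. The values in this and the following comparisons are log2 signals normalized within a tissue, except the sums of cell type markers, which are normalized over both tissues. In the liver SCD ran from 9.80 to 15.72, a 61-fold range, while in the mammary gland it ran from 17.33 to 17.79, a 1.38-fold range. FADS2 had a 65.3-fold range in the liver and a 1.97-fold range in the mammary gland, ACSS2 ranges of 18.3-fold and 3.43-fold, and THRSP ranges of 11.4-fold and 2.46-fold. Only SREBF1 had the wider range in the mammary gland, from 9.17 to 10.80, against 10.09 to 11.49 in the liver.

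These ranges were set by the same animals. Cow 57 had the lowest liver level of 6 of the 9 members, namely ACLY, ACSS2, ELOVL6, FADS2, SCD and THRSP, and cow 41 had the highest level of these 6 and of ACACA. Both cows received B9. For SCD the liver levels of the B9 cows were 13.64 (cow 39), 15.72 (cow 41) and 9.80 (cow 57), those of the B12 cows 11.56, 13.20, 14.18 and 14.99, those of the B9 + B12 cows 14.30 and 12.11, and those of the Ctl cows 13.87, 15.07 and 14.87 (log2). For FADS2 they were 14.56, 17.24 and 11.20 with B9, 14.28, 14.90, 15.83 and 17.01 with B12, 16.90 and 16.50 with B9 + B12, and 16.47, 16.81 and 16.58 in Ctl, in the same order of cows. The Ctl cows were thus close together for FADS2, and the B9 cows were not. In the mammary gland cow 57 was lowest for 4 members (AACS, ACLY, ACSS2, SCD, the last tied with cow 38) and cow 41 highest for 5 (these 4 and THRSP), within much narrower ranges.

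**Figure D3:**
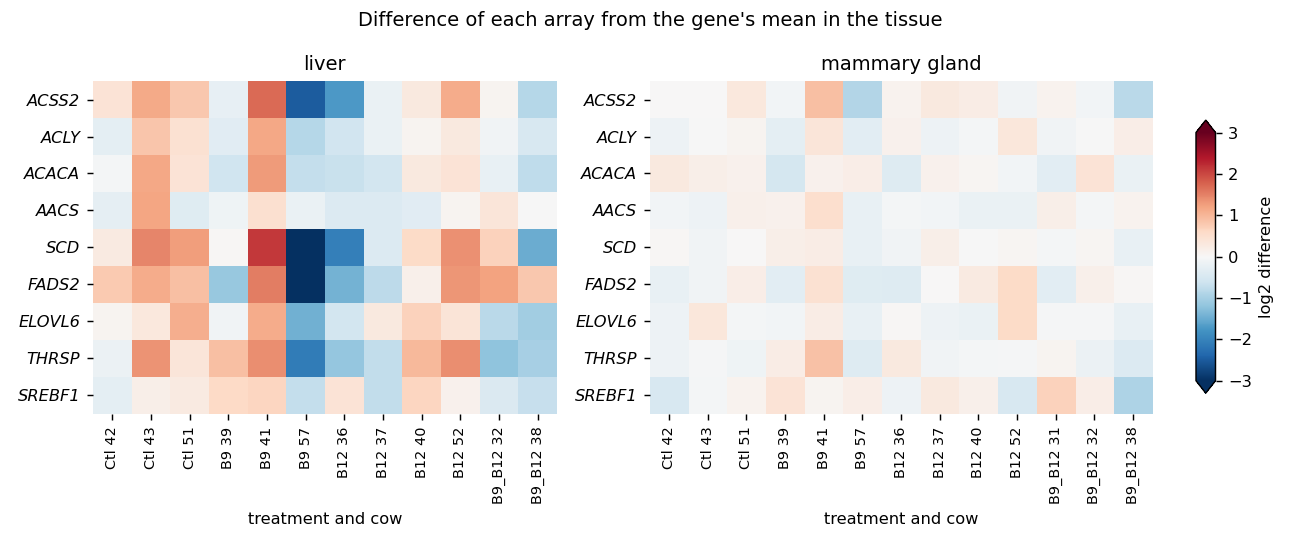
Difference of each array from the mean of the gene over all arrays of the tissue (log2, red above and blue below, colours saturate at the ends of the scale), by member (rows) and by treatment and cow (columns), for the liver and the mammary gland. In the liver whole columns share a colour, with cow 41 and cow 43 red and cow 57 and cow 38 mostly blue; in the mammary gland the differences are small.

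Pooled over treatments, the SD between cows of one group was larger in the liver for 9 of 9 members, with a median ratio of 2.69 (from 1.20 for SREBF1 to 12.1 for SCD). Over the 15983 genes well above background on all arrays the ratio had a median of 1.44, and 75.8% of genes varied more in the liver. The liver SD was 1.87 for SCD, a value exceeded by 0.0313% of these genes, 1.68 for FADS2 (0.0751%), 1.31 for ACSS2 (0.225%) and 1.28 for THRSP (0.257%). In the mammary gland the SD of SCD was 0.155, and 62.5% of genes had a larger one. The narrow mammary spread rests in part on the scale. SCD lies near the top, where quantile normalization gave its 13 mammary arrays 9 distinct levels, and THRSP and ELOVL6 lie near the bottom, where the offset narrows differences. When each array was instead scaled by its 75th percentile, the mammary SD of SCD was 0.243 and its ratio 7.72, and with the processed signal of the scanner so scaled the ratios were 7.23 for SCD, 1.44 for THRSP and 1.44 for ELOVL6. All 9 members stayed above 1 under these and under normexp offsets of 16 and 0, which were chosen after seeing the data, with median ratios of 2.64 to 2.86 against 1.27 to 1.41 over all genes. By single probe, 29 of the 30 varied more in the liver, the exception being the second AACS probe (0.679), and the 7 SCD probes had ratios of 3.57 to 12.1. The ratios are a description without a test.

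Without both arrays of cow 57 the median ratio of the members was 2.66, with 8 of 9 members above 1, and that of all genes 1.32. Without cow 57 and the second scan day the members kept a median ratio of 2.90 (8 of 9 above 1), while that of all genes was 1.04 with 52.7% of genes above 1. SREBF1, at 0.547, was then the exception. Between the livers of cow 57 and cow 41 the log2 sums of cell type markers were 20.74 and 20.79 for hepatocyte genes, 12.69 and 12.64 for stromal genes, 13.18 and 12.81 for immune genes, 9.91 and 9.33 for endothelial genes and 13.38 and 11.77 for red cell genes. Red cell genes were highest of all livers in cow 57 and lowest in cow 41. The part of these cells in the differences was not tested.

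**Figure D4:**
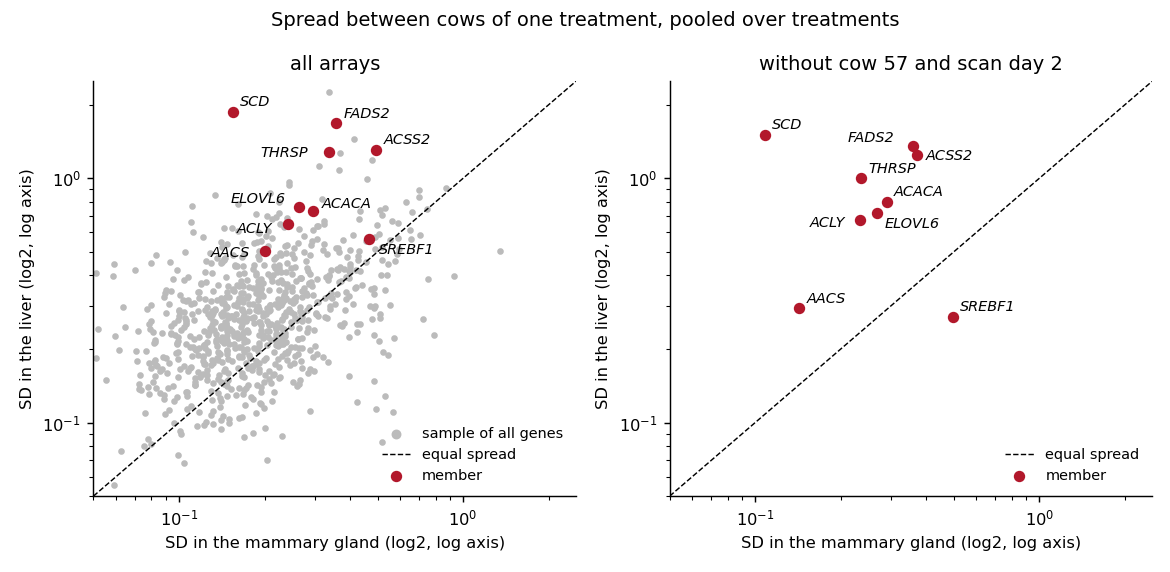
SD between cows of one treatment, pooled over treatments (log2, both axes logarithmic), in the mammary gland (horizontal) and the liver (vertical), for the members (red) and a sample of all genes (grey), with all arrays (left) and without cow 57 and the second scan day (right, members only). All 9 members lie above the line of equal spread on the left, and 8 of 9 on the right, where SREBF1 lies below it.

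Members that varied in the liver varied together. After the mean of each treatment was removed, all 36 pairs of members had a correlation above 0 across the 12 livers, with a median of 0.784, and 32 pairs were above 0.5. Over all pairs of 8131 named genes well above background, the median was 0.0275 and 19.6% were above 0.5. The closest pairs were SCD with ACSS2 (0.982), ACSS2 with FADS2 (0.962), ACACA with ACLY (0.959) and SCD with FADS2 (0.945), and the loosest were those of AACS with ELOVL6 (0.239) and with SREBF1 (0.268). Without cow 57 the median was 0.728, with 26 pairs above 0.5, and all 36 stayed above 0. Without cow 57 and the second scan day the median was 0.833 over 8 livers, with 32 of 36 pairs above 0, and the 4 negative pairs were those of SREBF1 with AACS (−0.428), FADS2, ACSS2 and THRSP. In the mammary gland the median was 0.338, with 10 of 36 pairs above 0.5, against 11.2% of all pairs, and the median was 0.201 without cow 57, a value exceeded by 32.5% of all pairs. With all mammary arrays ACSS2, THRSP and AACS formed the closest trio (0.804 to 0.879), but without cow 57 their correlations were 0.557 to 0.745. The correlations describe these arrays, which share slides and normalization.

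SREBF1, the regulator, was also set against each of the other members. In the liver its correlation with them ran from 0.268 (AACS) to 0.695 (THRSP), but from 0.0466 (ACSS2) to 0.389 (THRSP) without cow 57 and from −0.428 (AACS) to 0.449 (ELOVL6) without cow 57 and the second scan day. None of the 16 relations over both tissues passed an adjusted p of 0.05 (permutation within treatments, two-sided, lowest adjusted p = 0.383). With THRSP, Spearman's rho was 0.608 and the permutation p of r was 0.108 (n = 12). Without the 2 livers farthest from the median of SREBF1 the r was 0.0976. Without the 2 farthest it was 0.347 with the mean of all probes and 0.712 with arrays scaled by the 75th percentile. How far the relation rested on those animals thus varied with the processing. In the mammary gland the relation with ACLY was negative (r = −0.514, permutation p = 0.0239, adjusted p = 0.383; rho = −0.544, permutation p = 0.0442; n = 13) and r was −0.495 without the 2 farthest arrays.

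The level of a member in the liver of a cow was also set against that in the mammary gland of the same cow, and no relation passed an adjusted p of 0.05. Among the 12 cows that gave both biopsies, deviations from the mean of the treatment were most closely related for FADS2, with an r of 0.797 (permutation p = 0.0162, Benjamini-Hochberg adjusted p over the 9 relations = 0.146; rho = 0.755, permutation p = 0.0590), and r was 0.906 without the 2 farthest cows. For SCD r was 0.790 (permutation p = 0.0619, adjusted p = 0.257; rho = 0.699, permutation p = 0.0955), and 0.309 without the 2 farthest cows. Without the 2 farthest cows r went from 0.726 to 0.580 for ACSS2, from 0.716 to 0.291 for ACLY, from 0.550 to −0.303 for THRSP and from 0.081 to 0.785 for SREBF1. For the other 3 members r was 0.333 (ACACA), 0.304 (ELOVL6) and −0.0156 (AACS). The adjusted p of these 7 members ran from 0.257 to 0.967.

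The vitamins were each compared with saline within a tissue, to ask whether supplements given in early lactation changed these genes. In the liver none of the 9 members was called by limma with B9, B12 or B9 + B12, where 0%, 0.00359% and 0% of all genes were called, nor by Cyber-T as run here on these values (the methods of the study name this test), where 0.0108%, 0.09% and 0.0504% were. At an unadjusted limma p of 0.05, 0, 0 and 1 members passed, against 3.16%, 2% and 5.88% of all genes. By Cyber-T, 1, 4 and 5 members passed at this level, against 4.5%, 4.45% and 6.56%. All 3 comparisons share the Ctl cows.

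Liver means were nonetheless mostly below those of Ctl. Over the members the median log2 difference was −0.52 in B9 cows, −0.46 in B12 cows and −0.996 in B9 + B12 cows, with 8 of 9 members below 0 in each, while over all genes it was 0.00551, −0.0004 and 0.0242. As the members vary together from cow to cow, these 9 values are not 9 independent readings. With B9 + B12 both treated livers lay below all Ctl livers for 5 members (ACACA, ACSS2, ELOVL6, SREBF1 and THRSP), against 9.32% of all genes. This held for no member with B9, against 4.56% of all genes, and for none with B12, against 2.63%.

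By the brightest probe of each gene, ELOVL6 was the one member with a limma p of at most 0.05 in the liver. Its log2 levels were 10.79, 11.04 and 11.80 in Ctl livers and 9.92 and 9.67 in B9 + B12 livers, with no overlap. The difference was −1.42 (standard error 0.63, limma adjusted p = 0.687, Cyber-T adjusted p = 0.354), and the exact permutation p was 0.1, the smallest that 3 against 2 cows allow. With B9 the ELOVL6 levels were 10.61, 11.82 and 9.27, and with B12 10.17, 11.01, 11.40 and 11.12, both overlapping Ctl. All 5 ELOVL6 probes were lower with B9 + B12, from −1.42 to −0.66. With the scan day as a fixed block, with array weights, with the mean of all probes, with quantiles over both tissues, or without any one of cows 51, 43, 38 and 32, no member had a limma p of at most 0.05 in this comparison (0 of 9). The probes of ACLY disagreed in sign in the liver, from −0.42 to 0.36 with B9, from −0.43 to 0.08 with B12 and from −0.63 to 0.24 with B9 + B12 (log2). One of its dimmer probes was at 0.36 with B9 (standard error 0.15, unadjusted p = 0.0362 and adjusted p = 0.906 by limma), opposite to the brightest.

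THRSP stood at 10.00, 11.52 and 10.53 in Ctl livers and at 8.96 and 9.18 with B9 + B12 (log2), again without overlap. The difference was −1.61 (standard error 1.06, limma adjusted p = 0.687, Cyber-T adjusted p = 0.151). With B9 its levels were 11.07, 11.57 and 8.06, a difference of −0.45 (standard error 0.95, limma adjusted p = 0.948), and with B12 they were 9.01, 9.43, 11.14 and 11.56, a difference of −0.40 (standard error 0.89, limma adjusted p = 1). Both of these groups overlapped Ctl on either side. Without cow 57 the B9 difference was 0.64, and the B12 difference was 0.02 without the control cow 43 and 0.03 without cow 36, so that neither had a settled sign.

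The difference of FADS2 with B9, chosen for its size after the values were seen, was −2.29 (standard error 1.24, unadjusted p = 0.0963 and adjusted p = 0.906 by limma) and was −0.72 without cow 57 and −3.74 without cow 41. With B12 FADS2 was at −1.11 and with B9 + B12 at 0.08 (log2). The 2 liver arrays that stood apart shaped these results. Without the arrays of cows 57 and 32 the median of the members was 0.01 with B9, and with B9 + B12, where a single array was left, it was −1.26. Cow 41 worked the other way, and without it the B9 median was −1.16. Without the second scan day the medians were −0.19, −0.17 and −0.94 for B9, B12 and B9 + B12. Within that day, whose arrays were all on slide 8, the single B12 and B9 + B12 livers had median differences of −1.59 and −0.95 from the single Ctl liver. The slide 8 values below are these same values. Within slides, the median difference from the Ctl liver of the slide was −1.52 for B9 (slide 4), −0.37 and −1.59 for B12 (slides 1 and 8) and −0.70 and −0.95 for B9 + B12 (slides 4 and 8), each from single arrays.

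In B9 + B12 livers the log2 sum of immune genes was 12.81 and 13.67 against 12.65 to 12.75 in Ctl, that of adipocyte genes 14.19 and 14.21 against 13.57 to 13.91, that of endothelial genes 9.74 and 10.16 against 9.12 to 9.43, and that of hepatocyte genes 20.82 and 20.88 against 20.84 to 20.87. The adipocyte sum is mostly that of CFD. The part of these cells in the differences was not tested.

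**Figure D5:**
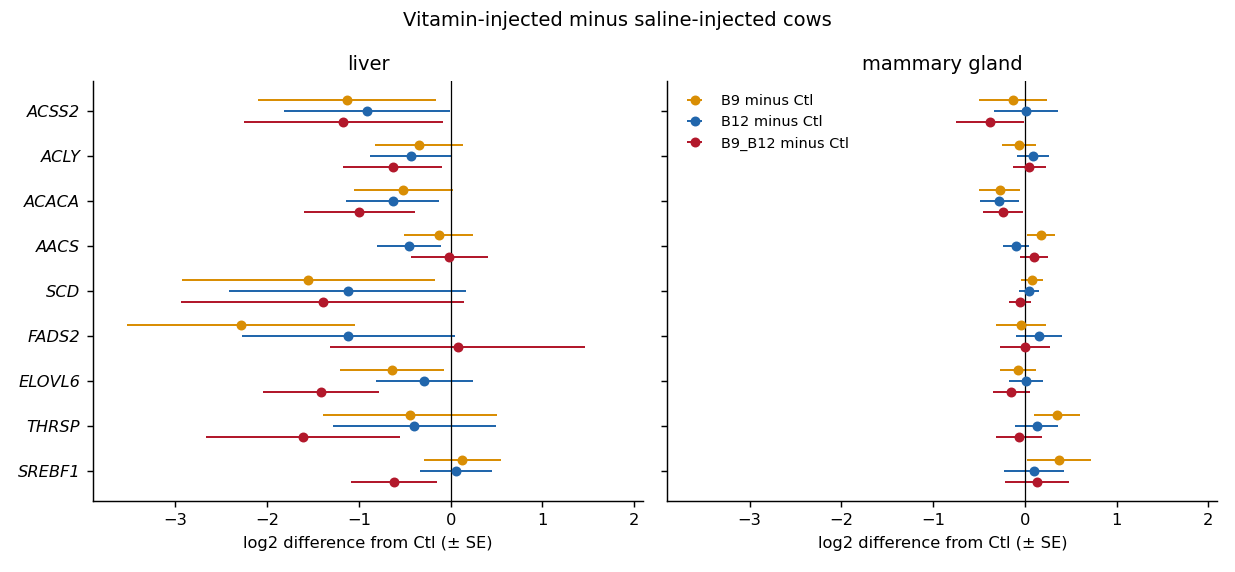
Log2 difference from Ctl (points) with its standard error (lines) of each member with B9, B12 and B9 + B12 (B9_B12 in the legend) in the liver and the mammary gland, on one scale. Liver points lie mostly left of 0 with wide errors, and mammary points lie within −0.38 to 0.37.

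In the mammary gland the members stayed close to Ctl. None was called by limma or Cyber-T with any treatment, against 0% of all genes by limma and 0.0144%, 0.0252% and 0.018% by Cyber-T for B9, B12 and B9 + B12. At an unadjusted p of 0.05 none passed by either test, against 2.44%, 2.38% and 1.92% of all genes by limma and 3.73%, 3.85% and 3.72% by Cyber-T. Without cow 57, 3 members passed with B9 by limma, and the share of all genes was not taken for that fit. The differences ranged from −0.27 to 0.37 with B9, from −0.28 to 0.16 with B12 and from −0.38 to 0.14 with B9 + B12 (log2), and their medians were −0.04, 0.05 and −0.06. SCD differed from Ctl by 0.07 (standard error 0.12), 0.05 (0.11) and −0.06 (0.12). The 7 SCD probes ran from −0.04 to 0.10 with B9, from 0.05 to 0.31 with B12 and from −0.26 to 0.27 with B9 + B12. In B12 cows ACACA stood at 8.75, 9.2674, 9.19 and 9.05, narrowly below the 9.42, 9.32 and 9.2737 of the Ctl cows, with means lower by 0.28 on the log2 scale (limma adjusted p = 1, exact permutation p = 0.0857). Its 3 probes ran from −0.28 to −0.08. By the brightest probes ACACA was the one member whose treated arrays were all below Ctl, against 1.56% of all genes. With B9 and B9 + B12 there was none, against 3.28% and 3.5%.

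Contrasts over all 4 treatments called no member either, for cows with any B12, with any B9, or for the interaction of both vitamins, in either tissue, where 0% of all genes were called. By the brightest probes, the lowest unadjusted p in the liver was 0.0581 for any B9, 0.191 for any B12 and 0.0844 for the interaction, the last that of FADS2 at a log2 interaction of 3.48. Counted over members and these contrasts, 0 of 27 liver values had an unadjusted p of at most 0.05, against 5.5% over all genes. With the slide as a fixed block, which left 2 residual degrees of freedom, 9 did, against 14.4%. Without cow 57 there were 4, against 6.78%, and without cow 41 also 4, against 8.13%. A dimmer ACLY probe was at 0.26 for any B9 (log2, unadjusted p = 0.0366 and adjusted p = 0.491 by limma). The difference of the treatment effect between mammary gland and liver called no member for B9, B12 or B9 + B12, where 0% of all genes were called. The lowest unadjusted p values of the members were 0.0996, 0.303 and 0.0667 by limma. The narrow mammary differences and the wide liver differences are thus not shown to differ from each other.

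Of the 32 related lipid genes none was called with any treatment in either tissue. Those with an unadjusted limma p of at most 0.01 against Ctl were 0, 1 and 3 in the liver with B9, B12 and B9 + B12, against 0.453%, 0.327% and 0.948% of all genes. On mammary arrays they were 0, 1 and 0, against 0.348%, 0.312% and 0.277%. GPAM, which takes the first step of triacylglycerol synthesis, was at −0.88 with B12 (standard error 0.26, limma adjusted p = 1) and at −1.07 with B9 + B12 (0.31, 0.687). The lipoprotein receptor VLDLR was at 0.99 (standard error 0.21, limma adjusted p = 0.687) and the carrier FABP3 at 0.78 (0.19, 0.687) with B9 + B12. Without cow 38, when cow 32 alone stood for its group, VLDLR was at 1.38. The liver array of cow 32 is one of those that stood apart and was scanned on the second day. The lowest VLDLR value with each array left out was 0.60, and over the alternatives VLDLR ran from 0.31 to 1.74 (log2). In the mammary gland PGD, which supplies NADPH to synthesis, was at 0.44 with B12 (log2, standard error 0.13, limma adjusted p = 1).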

How the data were processed

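The authors hybridized Cy3-labelled cRNA to 1-colour arrays and deposited scanner output (Agilent Feature Extraction 10.7.3.1, per the file headers) and a processed table. The deposited intensity of each spot is its median signal with a local background, not normalized between arrays. The authors' processed table holds log2 values, background-corrected by normexp and normalized between the arrays of a tissue. These values lay within a median distance of 0.000951 (mammary gland) and 0.00185 (liver) of normexp at offset 16 with quantiles within tissue, and served as an alternative.

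Here intensities were corrected by normexp (offset 50), which narrows differences of dim probes, normalized by quantiles (over all arrays between tissues, within a tissue for treatments) and put on the log2 scale. Outlier spots were dropped and spots of a probe averaged. Accessions were named through RefSeq, whose assembly is not that of the array's annotation, so no position is given. Of 27886 names 11113 had a current symbol. No sequence is shown because no sequence table was used here.

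Limma 3.58.1 (R 4.3.3) was fitted to all groups of a tissue, or to all 8 groups, and p-values were adjusted by Benjamini-Hochberg across all probes. A call needs a 2-fold difference and an adjusted p up to 0.05. Cyber-T (window 101, confidence 10) was an alternative. Single differences were tested by exact permutation, two-sided. Fits used no cow block: deviations of the tissues of a cow correlated by −0.245 to 0.262 (median 0.0373, above 0.1 in 4 of 12 cows). No member spot was saturated (0 spots). The number of arrays limits the precision.

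The members and lists were chosen with earlier results of these data known. Named with statistics were all members between tissues, members with an unadjusted p of at most 0.05 and THRSP in the liver for treatments, with FADS2 (liver), ACACA, SCD (mammary gland) and a dimmer ACLY probe added after their values were seen, and of the related genes the 5 largest differences in each direction between tissues and those at p of at most 0.01 with a treatment. Among related genes not found on the array were ACACB, SREBF2 and MLXIPL. The hepatocyte, mammary, adipocyte, stromal, immune, red cell and endothelial markers were fixed lists, and of the red cell and endothelial genes none was called between tissues.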

Additional observations from a re-analysis of the deposited data

Results flagged for a closer look

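In the liver of B12 cows, AACS stood apart in 1 of the 4 animals. Cow 52 was at 7.72 on the log2 scale, while the others were at 7.21, 7.22 and 7.28, so that the gap made up 0.859 of the group's whole range, more than the critical value of Dixon's test. By chance about 1 in 20 such groups would be picked out, and 18 groups of 4 arrays were examined.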

How the results depend on the processing

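The number of members called between tissues was 7 or 8 under each alternative, with the same 4 higher. Only ACLY joined, at −1.84 with quantiles within each tissue and −1.90 in the authors' processed table, the settings under which SREBF1 turned to −0.67 and −0.69. These settings equalize the tissues separately. With the cow as a replicate block, the 7 called members kept their calls and ACLY and SREBF1 stayed uncalled, and FADS2 was at −6.70 (cow random) and −6.66 (cow fixed, 12 cows), against −6.70 without the block. No member was called with any treatment under any alternative, and leaving out each array in turn gave the same count of 0.

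In the liver the median log2 difference with B9 was −1.54 with the slide as a fixed block, which left 2 residual degrees of freedom, and −1.16 to 0.00635 when each array was left out, the lower without cow 41 and the higher without cow 57. The corresponding mammary median ran from −0.20 to 0.22, the latter without cow 57. With each array left out, the liver medians ran from −0.81 to −0.31 with B12 and from −1.27 to −0.49 with B9 + B12. THRSP with B9 was −2.23 with the slide as a fixed block, turned to 0.42 with array weights and to 0.64 without cows 57 and 32, an alternative chosen after seeing the data, and ran from −1.12 to 0.64 with each array left out. THRSP with B12 turned to 0.31 without the second scan day, also chosen after seeing the data, and ran from −0.82 to 0.0316. The causes were not tested. Members at an unadjusted p of 0.05 numbered 0 to 5 with B9 (5 without cow 41), 0 to 4 with B12 and 0 to 5 with B9 + B12 in the liver, and 0 to 3, 0 and 0 to 1 in the mammary gland. For the contrasts of any B9, any B12 and the interaction they numbered 0 to 9 in the liver and 0 to 4 in the mammary gland, the 4 without cow 57. For the difference of effects between tissues they numbered 0 to 6, with 6 without the liver of cow 41. Shares of all genes at this p moved with the setting too. Over the liver contrasts they were 5.5% in the main fit, 14.4% when slides were blocked, 6.78% without cow 57 and 8.13% without cow 41. Apart from these and the Cyber-T fits against Ctl, no share was taken for the alternatives. Where it was not taken, a count does not show whether members passed more often than other genes. The lone array left in a group is assumed to vary like the other groups. Scan day could not be fitted in the mammary gland, where all arrays were scanned on one day. The 2 to 4 cows of a group limit what can be detected in the liver.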
